A study of Mus musculus with 8 samples.

Results

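The 10 genes described here, Klf2, Klf4, Klf5, Esrrb, Tbx3, Tfcp2l1, Zfp42, Nr5a2, Prdm14 and Nr0b1, encode transcription factors that hold mouse embryonic stem (ES) cells in the naive state. They were chosen by name and matched by mouse symbol to the Ensembl identifiers of the deposited tables, which list 47069 genes. All 10 were found and all 10 passed the filter on low counts. Poly-A RNA was sequenced from C57BL/6 ES cells grown in serum with leukemia inhibitory factor (LIF) on mitomycin-C inactivated mouse embryonic fibroblasts, with 8 libraries in 4 groups of 2. WT cells were wild type, Pcgf3KO cells had lost Pcgf3, Pcgf5KO cells had lost Pcgf5, and double knockout (DKO) cells had lost both. The 3 knockouts were made with Cas9. The labels do not say whether a knockout is 1 clone or whether the libraries of a group came from separate cultures, so p-values measure the spread between these libraries, which may be technical.

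Naive pluripotency is the state of the epiblast before implantation. LIF acts through its receptor and JAK kinases on STAT3, which activates Klf4 and Tfcp2l1, while FGF and ERK signalling pushes cells out of the state. The factors bind each other's genes and form a network around Pou5f1, Sox2 and Nanog, so that several can be lost singly without collapse. Pcgf3 and Pcgf5 encode RING finger subunits of Polycomb complexes of the variant kind, which place ubiquitin on a histone. Polycomb complexes occupy many CpG-rich gene starts.

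The table of WT replicate 1 used here covers 8093 genes (17.2% of the list) and 0 of the 10 factors. Levels and tests therefore rest on the other 7 libraries, with WT as 1 library that has no replicate check and is taken to vary as the knockout groups do. These 7 libraries held 12652616 to 19923964 counts. Pcgf3 was at 110 CPM (counts scaled to library size) in WT, 66.1 and 60.5 in the Pcgf3KO pair, 92.3 and 94.1 in the Pcgf5KO pair, and 86.6 and 67.2 in the DKO pair. Pcgf5 was at 20.7 in WT, 17.3 and 17.4 in the Pcgf3KO pair, 12.3 and 9.06 in the Pcgf5KO pair, and 13.5 and 13.9 in the DKO pair. Counts over whole genes do not show the edited stretch, so these levels check the labels only in part. The DKO libraries stood furthest apart. Replicates correlated at 0.9852 in DKO, 0.992 in Pcgf5KO and 0.9934 in Pcgf3KO (across genes, which are not independent replicates). The chi-square per gene between replicate counts was 19.12 in DKO, 3.34 in Pcgf3KO and 1.87 in Pcgf5KO. In comparisons with DKO the log2 fold changes with 1 DKO library left out are also given. Such a fit takes its spread from the single knockout pairs alone. Calls from it are not comparable with those from all 7 libraries. The 6 ES cell markers, Pou5f1, Sox2, Nanog, Utf1, Dppa5a and Tdh, summed to between 1680 and 2240 CPM in every library. Of 23 fibroblast markers, S100a4 was at 0 in all 7 libraries and the list summed to 1420 CPM in WT, 922 and 929 in the Pcgf3KO pair, 1250 and 1300 in the Pcgf5KO pair, and 1370 and 1240 in the DKO pair. Most of that sum was Fn1, which ES cells and their derivatives can also express.

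The factors spanned a wide range of levels, which can be compared between genes only after division by exon length (CPM per kilobase of exon, mean over the 7 libraries). Klf2, a Krüppel-like zinc finger activator, stood highest at 271 (229 to 322), and the orphan nuclear receptor Esrrb followed at 73.9 (62.3 to 81.6). Zfp42 (Rex1, a zinc finger marker of the naive state) at 45.9 (42.9 to 49.4) and Nr0b1 (Dax1, a nuclear receptor cofactor without a usual DNA-binding domain) at 44.9 (31.4 to 51.0) overlapped. So did the grainyhead-family factor Tfcp2l1 at 13.8 (8.89 to 19.3), the nuclear receptor Nr5a2 at 9.46 (7.67 to 12.6) and Klf5 at 9.27 (7.29 to 13.4). Klf4 was at 3.38 (1.76 to 5.57), the PR-domain protein Prdm14 at 1.42 (0.944 to 1.85) and the T-box factor Tbx3 at 0.616 (0.223 to 1.73). Each of these last 3 overlapped its neighbour in the order. The least abundant factors thus include Klf4 and Tbx3, which had the largest fold changes in DKO.

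**Figure D1:**
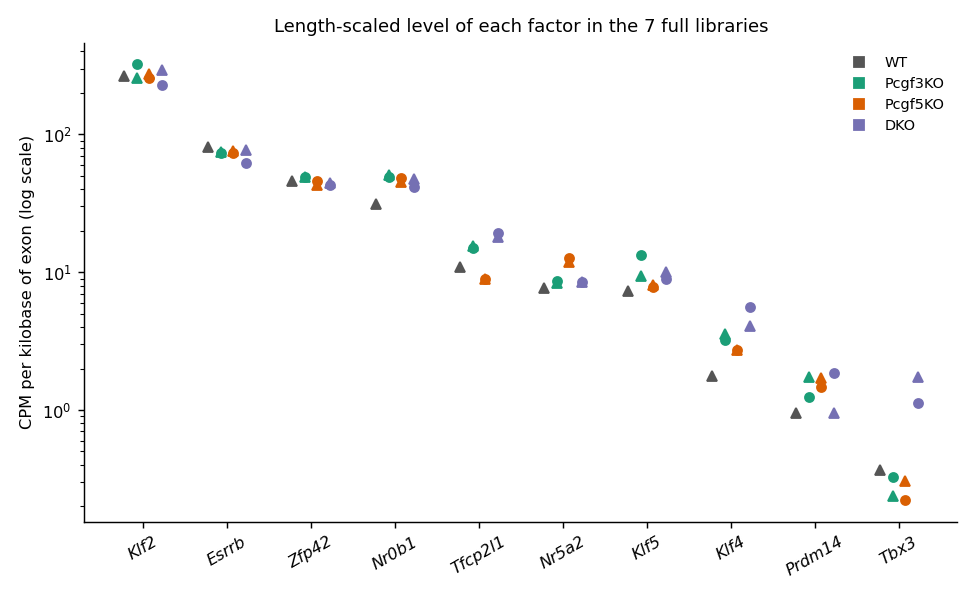
Level of each of the 10 factors in CPM per kilobase of exon (log axis), ordered by the mean over 7 libraries. Each point is 1 library (circle replicate 1, triangle replicate 2) and colours mark the groups. Klf2 lies highest at 229 to 322 and Tbx3 lowest at 0.223 to 1.73, where the DKO points stand above the others.

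Which factors rose in all knockouts? Klf4, one of the original reprogramming factors and a target of STAT3, was at 5.35 CPM in WT (94 counts), 9.88 and 10.8 in the Pcgf3KO pair, 8.29 and 8.25 in the Pcgf5KO pair, and 17.0 and 12.5 in the DKO pair. Its 6 knockout libraries all lay above WT, the DKO pair highest. Nr0b1, which binds Pou5f1 and Nr5a2 and restrains other factors, was at 56.7 CPM in WT, 89.2 and 92.2 in the Pcgf3KO pair, 87.5 and 82.2 in the Pcgf5KO pair, and 74.5 and 85.6 in the DKO pair. Here too all 6 knockout libraries lay above WT, with the 3 knockout groups close together.

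Klf5 and Nr5a2 were also above the 1 WT library in all 6 knockout libraries, and Esrrb was below it in all 6. That makes 4 of 10 factors above WT throughout, where 18.8% of the 15669 genes tested were, and 1 of 10 below, where 19.5% were. With 1 WT library this pattern is a description. A test of the mean of the 3 knockout groups against WT called Klf4 (log2 fold change 1.01 ± 0.21 SE, adjusted p = 0.0334) and Nr0b1 (0.59 ± 0.10, adjusted p = 0.0179), so 2 of 10 were called higher and 0 lower. The share of all genes called in this test was 3.54%, of which 1.39% were higher and 2.14% lower. Without either Pcgf3KO replicate or either Pcgf5KO replicate both calls were lost (adjusted p 0.0893 to 0.106 for Klf4 and 0.0703 to 0.0836 for Nr0b1, edgeR), with log2 fold changes of 0.99 to 1.03 and 0.57 to 0.60. Without DKO replicate 1 they were 0.93 and 0.62, with 0.41 for Klf5, 0.30 for Tfcp2l1 and 0.33 for Nr5a2. Without DKO replicate 2 they were 1.08 and 0.55, with 0.35 for Klf5, 0.33 for Tfcp2l1 and Nr5a2, 0.77 for Prdm14 and −0.22 for Esrrb.

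Group by group, Nr0b1 came nearest to passing in all 3 knockouts. It rose in Pcgf3KO (0.68 ± 0.12, adjusted p = 0.0189) and in Pcgf5KO (0.58 ± 0.12, adjusted p = 0.0324), while in DKO the value was 0.50 ± 0.12 (adjusted p = 0.0536). Klf4 rose in DKO (1.46 ± 0.23, adjusted p = 0.0114), a 2.75-fold change, and had values of 0.95 ± 0.23 in Pcgf3KO (adjusted p = 0.0711) and 0.63 ± 0.24 in Pcgf5KO (adjusted p = 0.195). Without DKO replicate 1 the DKO change of Klf4 was 1.22, and without DKO replicate 2 it was 1.67. Nr0b1 in DKO was 0.59 without replicate 1 and 0.40 without replicate 2. With all 7 libraries DESeq2 called Nr0b1 in DKO (0.49, adjusted p = 0.039), where edgeR did not. These comparisons share the 1 WT library, so a low or high value there enters all of them.

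**Figure D2:**
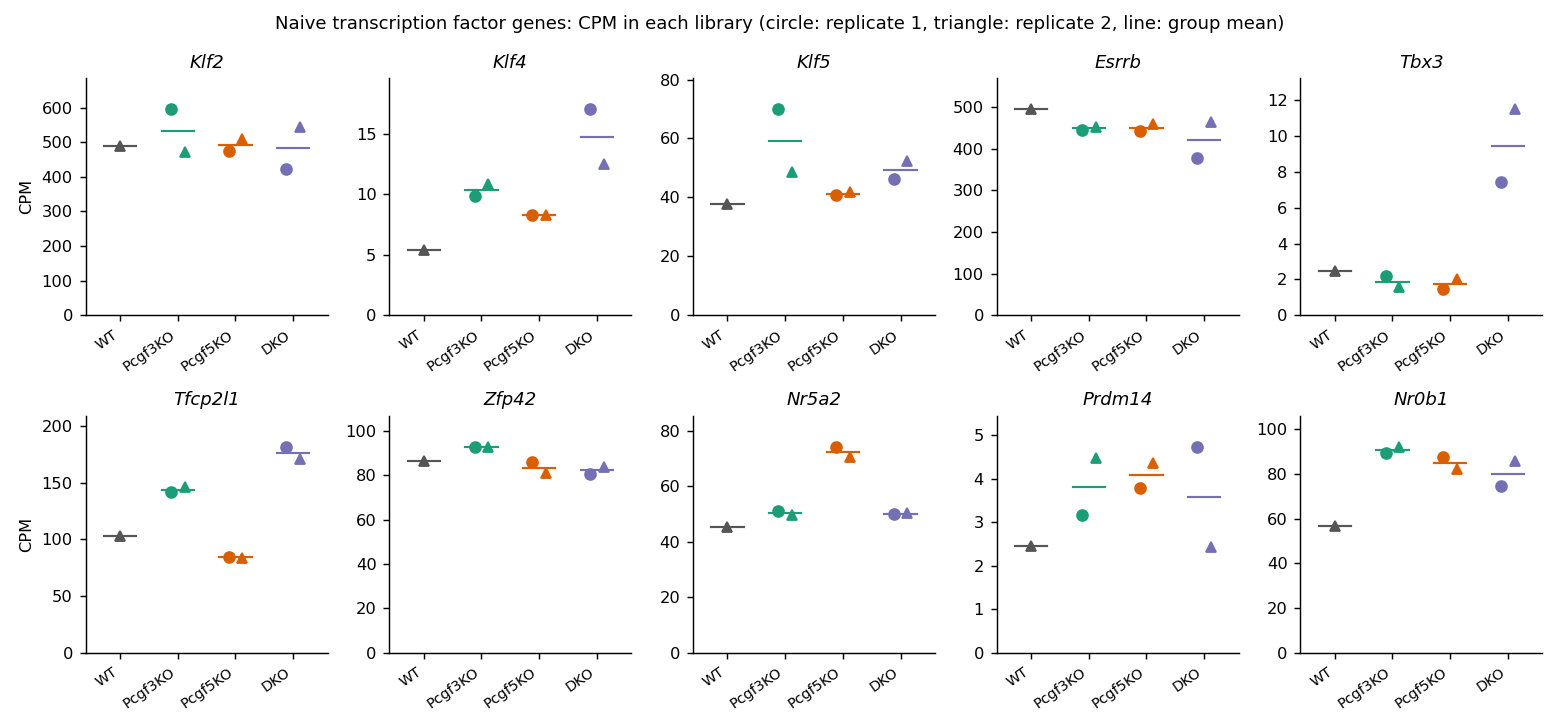
CPM of each factor in the 7 libraries (1 panel per gene, each axis from 0), with circles for replicate 1, triangles for replicate 2 and lines for group means. WT is replicate 2 alone. Klf4 and Nr0b1 lie above WT in all 6 knockout libraries, Nr5a2 is highest in Pcgf5KO (74.2 and 70.3), and Tbx3 stands apart in DKO (7.43 and 11.5).

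Pcgf3KO against WT compares the cells that lost Pcgf3 alone with WT. In it 2 of 10 factors were called, both higher, against 2.36% of all genes (1.08% higher, 1.28% lower). Besides Nr0b1 this was Tfcp2l1, a STAT3 target that can carry the response to LIF. Tfcp2l1 was at 103 CPM in WT and at 142 and 146 in Pcgf3KO (0.48 ± 0.09, adjusted p = 0.0332). Klf5 was at 37.9 CPM in WT and at 69.9 and 48.5 in Pcgf3KO, replicates that differ 1.44-fold (0.64 ± 0.20, adjusted p = 0.137). The median log2 fold change was 0.317 over the 10 factors and 0.002 over all genes tested. Both calls were lost without either Pcgf3KO replicate or either Pcgf5KO replicate, with adjusted p of 0.132 to 0.276 for Tfcp2l1 and 0.0772 to 0.178 for Nr0b1 (edgeR). With either DKO replicate left out, Klf4 was at 0.95 and Klf5 at 0.65.

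In Pcgf5KO against WT 2 of 10 factors were called, both higher, against 2.99% of all genes (1.31% higher, 1.68% lower). Nr5a2, which binds the Pou5f1 gene and can replace Pou5f1 in reprogramming, was at 45.3 CPM in WT, 51.1 and 49.6 in the Pcgf3KO pair, 74.2 and 70.3 in the Pcgf5KO pair, and 49.9 and 50.3 in the DKO pair. Its Pcgf5KO libraries lay above all 5 others, which spanned 45.3 to 51.1. The change in Pcgf5KO was 0.68 ± 0.11 (adjusted p = 0.0141), a 1.60-fold rise. Nr0b1 was the other. Tfcp2l1 took the opposite side, at 84.3 and 83.9 CPM below the WT value of 103, but did not pass (−0.30 ± 0.09, adjusted p = 0.131). The median over the 10 factors was 0.062, with 0.005 over all genes. Both calls were lost without either Pcgf3KO replicate or either Pcgf5KO replicate (adjusted p 0.0672 to 0.191 for Nr5a2 and 0.108 to 0.281 for Nr0b1, edgeR). With either DKO replicate left out, Klf4 was at 0.63 and Tfcp2l1 at −0.30.

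DKO against WT gave 3 of 10 factors called, all higher, against 3.22% of all genes (1.33% higher, 1.89% lower). Tfcp2l1 was at 182 and 171 CPM, above every other library (0.77 ± 0.10, adjusted p = 0.00335). Tbx3, a T-box factor that supports self-renewal and can also direct cells towards extraembryonic endoderm, was at 2.45 CPM in WT (43 counts), 2.17 and 1.57 in the Pcgf3KO pair, 1.48 and 2.02 in the Pcgf5KO pair, and 7.43 and 11.5 in the DKO pair. The lowest DKO library thus lay above the highest of the other 5. The counts behind these levels are 141 and 232 in DKO and 25 to 43 elsewhere. Counting error alone gives an interval of 6.25 to 8.76 CPM in DKO replicate 1 and of 1.77 to 3.3 in WT (exact Poisson, 95%). Tbx3 rose 3.86-fold (1.95 ± 0.36, adjusted p = 0.0227), and Klf4 was the third factor called.

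The median over the 10 factors in DKO was 0.438, with 0.014 over all genes. Without DKO replicate 1 Tbx3 was at 2.22 and Tfcp2l1 at 0.72 on the log2 scale, and without DKO replicate 2 they were at 1.60 and 0.82. The Klf4 and Tfcp2l1 calls were kept under all 12 alternatives tried, with a highest adjusted p of 0.0423 and 0.0274 (edgeR or DESeq2). The Tbx3 call was lost without either Pcgf3KO replicate or either Pcgf5KO replicate (adjusted p 0.0528 to 0.0588, edgeR). Without DKO replicate 1 Klf5 was at 0.47, Nr0b1 at 0.59, Prdm14 at −0.02, Esrrb at −0.09 and Klf2 at 0.15. Without DKO replicate 2 Klf5 was at 0.29, Nr0b1 at 0.40, Prdm14 at 0.95, Esrrb at −0.39 and Klf2 at −0.21. Tbx3 exons overlap those of the noncoding Tbx3os1 on the other strand by 115 bases, and the kit does not mark strand. Tbx3os1 itself had a CPM of 0 in 6 libraries and 0.0494 in DKO replicate 2.

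**Figure D3:**
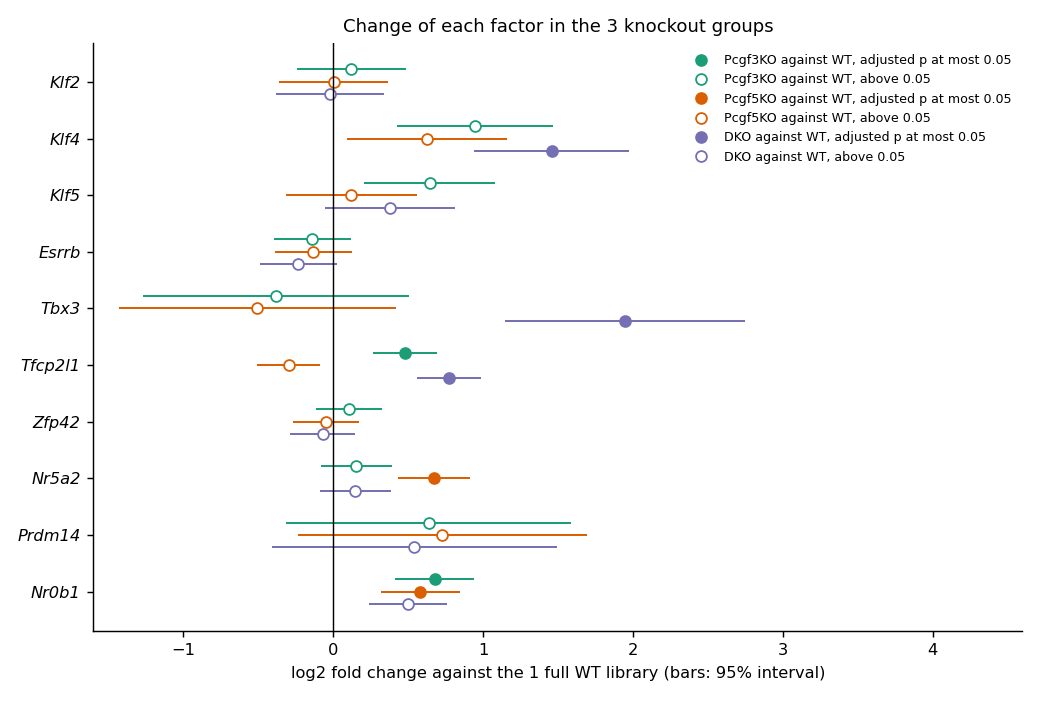
Log2 fold change of each factor in the 3 knockout groups against the 1 full WT library, with 95% intervals from the edgeR fit. Filled points passed an adjusted p of 0.05. Tbx3 in DKO lies at 1.95 while its single knockouts lie at −0.38 and −0.51, and Klf2, Esrrb and Zfp42 lie near 0 throughout.

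Klf2, Klf5, Esrrb, Zfp42 and Prdm14 were called in 0 of 9 comparisons by edgeR with all 7 libraries and in 0 of 8 by DESeq2, though each was called in some comparison without 1 DKO library. Klf5, a Krüppel-like factor shared with the trophectoderm, had an unadjusted p under 0.05 in 3 of the 9 and the other 4 in 0. Its CPM was 40.7 and 41.9 in Pcgf5KO and 46.2 and 52.4 in DKO, where the change was 0.38 ± 0.19 (adjusted p = 0.319), or 0.47 without DKO replicate 1 and 0.29 without DKO replicate 2. Klf2 had 490 CPM in WT, 595 and 472 in the Pcgf3KO pair, 475 and 508 in the Pcgf5KO pair, and 423 and 543 in the DKO pair, so its groups overlapped. The change in DKO was −0.02, with a 95% interval of −0.38 to 0.34, and turned from 0.15 without DKO replicate 1 to −0.21 without DKO replicate 2. Esrrb, a central target of the GSK3 and Tcf7l1 axis, had 494 CPM in WT, 445 and 451 in the Pcgf3KO pair, 441 and 459 in the Pcgf5KO pair, and 377 and 463 in the DKO pair. Its lowest value against WT was −0.23 in DKO (interval −0.49 to 0.02, adjusted p = 0.302). This value rests on the DKO libraries, at −0.09 without DKO replicate 1 and −0.39 without DKO replicate 2. Zfp42 had 86.3 CPM in WT, 92.9 and 92.8 in the Pcgf3KO pair, 86.2 and 80.8 in the Pcgf5KO pair, and 80.6 and 83.9 in the DKO pair, and its intervals against WT stayed between −0.29 and 0.33. For the 3 abundant genes, changes as large as that of Klf4 in DKO lie outside these intervals. Prdm14, which represses FGF receptor signalling and DNA methyltransferase genes, was measured less finely. It had 2.45 CPM in WT, 3.17 and 4.47 in the Pcgf3KO pair, 3.79 and 4.37 in the Pcgf5KO pair, and 4.74 and 2.42 in the DKO pair, a 1.96-fold gap between the DKO replicates, and its DKO interval ran from −0.41 to 1.49.

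Which factors separate the knockouts from each other? A test of any difference among the 3 knockout groups, which does not use WT for the contrast, called Tfcp2l1 (adjusted p = 0.00142), Tbx3 (adjusted p = 0.00547) and Nr5a2 (adjusted p = 0.0207). That is 3 of 10 factors, against 1.99% of all genes. Klf4 (adjusted p = 0.076) and Nr0b1 (adjusted p = 0.412) did not pass. Tfcp2l1 was ordered DKO, Pcgf3KO, WT, Pcgf5KO with no overlap between neighbouring groups, with group means of 176 ± 8.18, 144 ± 3.05, 103 and 84.1 ± 0.294 CPM (SD, n = 2, WT n = 1). Nr5a2 was set apart by Pcgf5KO at 72.2 ± 2.79 CPM (n = 2) and Tbx3 by DKO at 9.45 ± 2.85 CPM (n = 2). Tfcp2l1 and Tbx3 were thus highest in DKO and Nr5a2 in Pcgf5KO. The number called moved widely with the library left out, as given under the dependence on processing beside the counts over all genes.

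Between the single knockouts, Tfcp2l1 was lower in Pcgf5KO than in Pcgf3KO (−0.78 ± 0.08, adjusted p = 0.00427). It was the 1 factor of 10 called, in a comparison where 0.14% of all genes were called (0.0893% higher, 0.0511% lower). Nr5a2 had 0.52 ± 0.09 (adjusted p = 0.0722) and Klf5 had −0.52 ± 0.16 (adjusted p = 0.433). The Tfcp2l1 call was lost without either Pcgf3KO replicate or either Pcgf5KO replicate (−0.76 to −0.80, adjusted p 0.128 to 0.268, edgeR). Without either DKO replicate Nr5a2 was at 0.52 and Klf5 at −0.53.

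Against Pcgf3KO, the DKO had 1 of 10 factors called, Tbx3, where 1.74% of all genes were called (0.734% higher, 1.0% lower). Tbx3 was 5.03-fold higher (2.33 ± 0.28, adjusted p = 0.00584). It was 2.60 without DKO replicate 1 and 1.98 without DKO replicate 2. The call was lost without Pcgf3KO replicate 1 (2.59, adjusted p = 0.0867) or replicate 2 (2.12, adjusted p = 0.142). Tfcp2l1 (0.29 ± 0.08, adjusted p = 0.0934) and Klf4 (0.51 ± 0.17, adjusted p = 0.165) did not pass with all libraries. Tfcp2l1 was at 0.24 without DKO replicate 1 and 0.34 without DKO replicate 2, and Klf4 at 0.27 and 0.72. Without DKO replicate 1, Klf2 was at 0.02, Klf5 at −0.18, Esrrb at 0.045, Zfp42 at −0.15 and Nr0b1 at −0.09. Without DKO replicate 2 they were at −0.34, −0.36, −0.25, −0.20 and −0.28.

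Against Pcgf5KO, the DKO had 4 of 10 factors called, 3 higher and 1 lower, where 2.28% of all genes were called (0.996% higher, 1.28% lower). Tfcp2l1 was 2.10-fold higher (1.07 ± 0.08, adjusted p = 0.000702), Tbx3 5.48-fold (2.45 ± 0.30, adjusted p = 0.0112) and Klf4 1.78-fold (0.83 ± 0.17, adjusted p = 0.0466). Nr5a2 was lower (−0.53 ± 0.09, adjusted p = 0.0234). These 4 values were 1.02, 2.74, 0.60 and −0.53 without DKO replicate 1, and 1.12, 2.12, 1.04 and −0.53 without DKO replicate 2. Klf5 was at 0.35 without DKO replicate 1 and 0.17 without DKO replicate 2. Klf2 was at 0.15 and −0.21, Esrrb at 0.04 and −0.25, and Nr0b1 at 0.009 and −0.19, in the same order. Without either Pcgf5KO replicate 0 factors were called by edgeR, with adjusted p of 0.0617 and 0.0618 for Tfcp2l1, 0.213 and 0.253 for Tbx3, 0.367 and 0.39 for Klf4, and 0.324 and 0.335 for Nr5a2. Klf4 and Nr5a2 were also lost without either Pcgf3KO replicate (adjusted p 0.132 and 0.134, 0.0949 and 0.0955). In a fit of only these 2 groups, Tfcp2l1 remained and the other 3 were lost (adjusted p 0.0657 to 0.144).

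Does the double knockout add up the single ones? The interaction term, the excess of the DKO change over both single changes added on the log2 scale, passed for 4 of 10 factors, 2 above and 2 below additivity, against 3.79% of all genes (1.77% above, 2.02% below). Tbx3 had single changes of −0.38 and −0.51 and a DKO change of 1.95, an interaction of 2.84 ± 0.50 (adjusted p = 0.0176). Tfcp2l1 had 0.48 and −0.30 singly and 0.77 in DKO, an interaction of 0.59 ± 0.12 (adjusted p = 0.0298). These 2 lay above the sum. Nr0b1 lay below it, with 0.68 and 0.58 singly and 0.50 together (−0.76 ± 0.15, adjusted p = 0.0264), and its DKO change against Pcgf3KO was −0.18 (interval −0.39 to 0.03). Nr5a2 also lay below it, with 0.15 in Pcgf3KO, 0.68 in Pcgf5KO and 0.15 in DKO (−0.68 ± 0.14, adjusted p = 0.0287). For Klf4 the sum of the single changes was 1.57 and the DKO change 1.46, a difference of −0.12 (interval −0.77 to 0.54).

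All 4 interaction calls were lost without either Pcgf3KO replicate or either Pcgf5KO replicate, with adjusted p of 0.0664 to 0.118 for Tbx3, 0.172 to 0.189 for Tfcp2l1, 0.126 to 0.176 for Nr0b1 and 0.155 to 0.195 for Nr5a2 (edgeR). Without DKO replicate 1 the values were 3.12, 0.54, −0.67 and −0.68 in the same order of genes. Without DKO replicate 2 they were 2.49, 0.64, −0.87 and −0.69. With these replicates left out in turn, Prdm14 was at −1.37 and −0.40, Klf2 at 0.02 and −0.34, and Klf5 at −0.30 and −0.48.

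**Figure D4:**
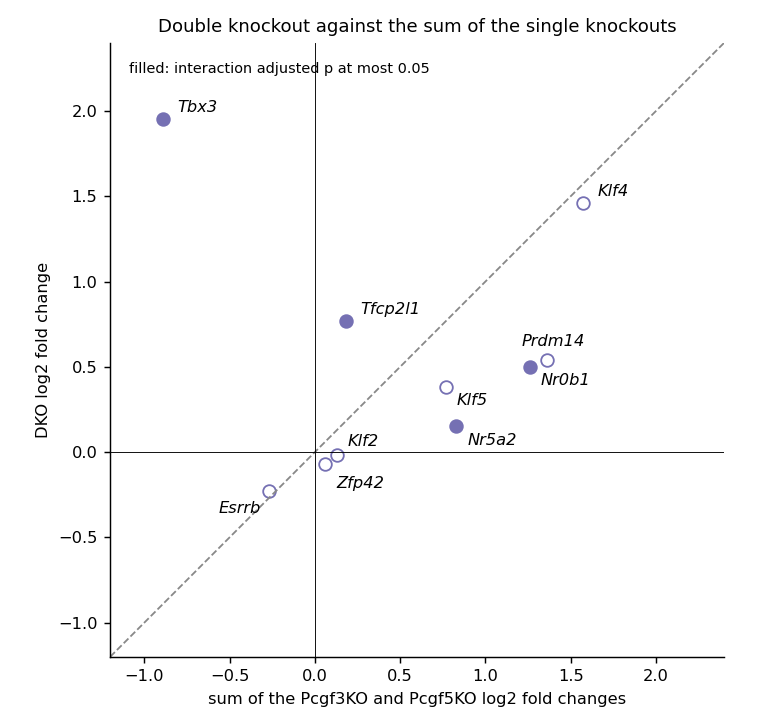
DKO log2 fold change of each factor (vertical) against the sum of its Pcgf3KO and Pcgf5KO log2 fold changes (horizontal), with the dashed line where they are equal. Filled points passed the interaction test. Tbx3 (−0.89 and 1.95) and Tfcp2l1 (0.18 and 0.77) lie above the line, Nr0b1 (1.26 and 0.50) and Nr5a2 (0.83 and 0.15) below it, and Klf4 (1.57 and 1.46) close to it.

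The starts of the factors that changed differ in CpG content, the base pair step that marks the gene starts many Polycomb complexes occupy. RefSeq sequence (GRCm38.p6) was matched for 7 of the 10 factors in 9 windows of 300 bases around a gene start. Klf5, Prdm14 and the called factor Tbx3 had no entry. Klf4 had 40 CpG, at percentile 96.3 of all 32841 gene starts (tied starts at their middle rank). Klf2 had 32, Tfcp2l1 21, Nr0b1 14, Zfp42 11, Esrrb 7 at both of its starts, and Nr5a2 7 and 2. The median was 7 over all starts. Among the 7 matched, Klf2, called in 0 comparisons, thus has the second most CpG, and Nr5a2, called in Pcgf5KO, has the window with the fewest. The 250 bases before the start of 3 called factors follow, 5′ to 3′ on the gene's strand and with CpG in capitals. Among the called factors matched, they are the richest, one in between and the poorest. For Nr5a2 the poorer of its windows is shown, and which start these cells use was not tested. They are Klf4 (chr4:55532476-55532725, minus strand), Tfcp2l1 (chr1:118627695-118627944, plus strand) and Nr5a2 (chr1:136960449-136960698, minus strand).
Klf4: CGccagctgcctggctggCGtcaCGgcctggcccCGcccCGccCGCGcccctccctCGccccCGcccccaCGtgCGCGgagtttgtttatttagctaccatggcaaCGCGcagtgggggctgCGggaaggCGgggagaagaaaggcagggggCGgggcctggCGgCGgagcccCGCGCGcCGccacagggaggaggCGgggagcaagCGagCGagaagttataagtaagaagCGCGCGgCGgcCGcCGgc
Tfcp2l1: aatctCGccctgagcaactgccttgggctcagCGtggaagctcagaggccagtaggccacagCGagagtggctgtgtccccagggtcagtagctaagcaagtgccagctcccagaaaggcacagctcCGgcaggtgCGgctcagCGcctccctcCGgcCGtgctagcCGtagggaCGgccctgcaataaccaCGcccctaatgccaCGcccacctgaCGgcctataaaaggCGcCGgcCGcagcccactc
Nr5a2: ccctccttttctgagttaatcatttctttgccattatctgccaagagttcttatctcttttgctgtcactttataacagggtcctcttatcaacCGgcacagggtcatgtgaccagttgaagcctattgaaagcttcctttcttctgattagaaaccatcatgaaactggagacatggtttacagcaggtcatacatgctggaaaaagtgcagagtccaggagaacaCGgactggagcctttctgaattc
The Klf4 stretch holds 32 CpG, that of Tfcp2l1 16 and that of Nr5a2 2.

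Sites that the network's own proteins are known to bind were searched on both strands of the first 250 bases of each 300-base window. They were the octamer ATGCAAAT (in 1.6% of all windows), the nuclear receptor half-site TCAAGGTCA (0.387%) and its shorter form CAAGGTCA (1.33%), which lies within the longer one, the STAT3 site TTCCNGGAA (0.913%), the Klf site GGGTGTGG (3.2%) and the T-box site AGGTGTGA (1.12%). Of the 7 factors matched, Zfp42 alone held any, an octamer and a Klf site, both on the other strand. They are in capitals in its 250 bases (chr8:43307010-43307259, minus strand, 5′ to 3′).
Zfp42: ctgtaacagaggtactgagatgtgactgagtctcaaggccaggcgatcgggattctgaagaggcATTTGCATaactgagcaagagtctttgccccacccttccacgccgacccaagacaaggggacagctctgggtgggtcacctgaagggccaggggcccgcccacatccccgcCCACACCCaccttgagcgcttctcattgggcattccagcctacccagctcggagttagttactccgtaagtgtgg
A match describes these letters in this window and not binding.

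Genes around the 10 factors were counted in the same tests. With all 7 libraries, the counts of all lists below stand against the shares of all genes called. For Pcgf3KO these shares were 1.08% higher and 1.28% lower, with 1.31% higher and 1.68% lower in Pcgf5KO, and 1.33% higher and 1.89% lower in DKO. Of 21 other naive-associated genes, 8 were higher and 0 lower in Pcgf3KO, 7 higher and 1 lower in Pcgf5KO, and 6 higher and 1 lower in DKO. In Pcgf3KO they included the adhesion gene Pecam1 (1.29 ± 0.10, adjusted p = 0.00077) and the lysosomal enzyme gene Manba (0.81 ± 0.10, adjusted p = 0.00476). The 1 lower gene was in both cases the glucose transporter gene Slc2a3 (−0.88 in Pcgf5KO, adjusted p = 0.00117, and −0.70 in DKO, adjusted p = 0.00251). The germline ATPase gene Morc1 rose by 1.42 in Pcgf5KO (adjusted p = 0.0138) and by 1.47 in DKO (adjusted p = 0.00976). The list's medians were 0.412, 0.48 and 0.292. Of 13 core and shared factors, 0 were called in Pcgf3KO by edgeR, 7 had an unadjusted p under 0.05 and DESeq2 called 1. Nanog had 0.49 ± 0.16 there (adjusted p = 0.173). Foxd3 (1.01, adjusted p = 0.00983) and Pou5f1 (0.41 ± 0.09, adjusted p = 0.0383) rose in Pcgf5KO, and Foxd3 (0.72, adjusted p = 0.0337) in DKO. Sox2 and Nanog passed in no comparison with WT when all 7 libraries were used.

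Upstream of the factors, the LIF, JAK and STAT3 list (20 genes) had 1 higher and 1 lower in Pcgf3KO, and 0 higher and 2 lower in both Pcgf5KO and DKO. The cytokine gene Lif itself was lower in Pcgf3KO (−1.04 ± 0.17, adjusted p = 0.0147) and Pcgf5KO (−1.15 ± 0.17, adjusted p = 0.0106), and the STAT3 target Pim1 in Pcgf5KO (−0.57, adjusted p = 0.0345) and DKO (−0.68, adjusted p = 0.0163). LIF was also added to the medium. The immediate early gene Junb was lower in DKO (−1.12 ± 0.21, adjusted p = 0.0239), and the kinase gene Tyk2 higher in Pcgf3KO (0.68 ± 0.11, adjusted p = 0.0134). Of 20 FGF and ERK genes, 2 were higher and 1 lower in both Pcgf3KO and DKO, and 2 higher and 2 lower in Pcgf5KO. In all 3 the ligand gene Fgf4 (0.53, 0.48 and 0.56) and the ETS factor gene Etv5 (0.54, 0.78 and 0.41) were higher and the ERK phosphatase gene Dusp6 (−0.68, −0.68 and −0.74) was lower, each with an adjusted p of at most 0.0467 by edgeR. Spry4, an inhibitor of the pathway, was lower in Pcgf5KO (−0.72, adjusted p = 0.0374).

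Of 15 beta-catenin pathway genes tested, 0 were called in Pcgf3KO by edgeR and 0 by DESeq2, with 3 at an unadjusted p under 0.05. Lef1 alone was higher in Pcgf5KO (2.58 ± 0.56, adjusted p = 0.0429), where DESeq2 called 0. It rests on few counts, 5 in WT (0.285 CPM) and 30 and 21 in Pcgf5KO (1.78 and 1.7 CPM). The Pcgf3KO and DKO libraries had 0.727 to 1.0 CPM, also above WT. Myc alone was lower in DKO (−0.70 ± 0.12, adjusted p = 0.0201). Of 19 genes that repress the naive network, Tcf7l1 among them, 0 were called in Pcgf3KO, Pcgf5KO and DKO by edgeR, with 1, 2 and 3 at an unadjusted p under 0.05 and 1, 0 and 0 called by DESeq2. Of 16 formative and primed epiblast genes tested, 0 were called in Pcgf3KO by edgeR (8 at an unadjusted p under 0.05, 2 by DESeq2), 1 was higher in Pcgf5KO, and 2 were higher and 2 lower in DKO. Otx2, which drives exit from the naive state, was at 1.82 CPM in WT, 4.08 to 4.85 in the single knockouts, and 13.8 and 9.83 in DKO (2.69 ± 0.30, adjusted p = 0.00229). Zic2 was higher in Pcgf5KO (0.94 ± 0.15, adjusted p = 0.015) and in DKO (1.42 ± 0.15, adjusted p = 0.00201). Cldn6 (−0.91, adjusted p = 0.0279) and Sox4 (−0.74, adjusted p = 0.0337) were lower in DKO. Klf4, Tfcp2l1 and Tbx3 were thus highest in the same libraries as Otx2. Fits without 1 DKO replicate were added after seeing the data. In each, every gene named here from the lists as higher or lower in DKO kept its direction. These genes were picked because they were called with all 7 libraries, so this is no independent support. Their calls with a Pcgf3KO or Pcgf5KO replicate left out are not given here. Otx2 was at 2.43 without replicate 1 and 2.92 without replicate 2, Junb at −0.83 and −1.48, Cldn6 at −0.66 and −1.21, Dusp6 at −0.58 and −0.91, Fgf4 at 0.44 and 0.68, Morc1 at 1.16 and 1.74, and Myc at −0.55 and −0.86.

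Markers of other cell types moved in the same comparisons. Fibroblast markers were called lower for 7 of 19 tested in Pcgf3KO, 1 in Pcgf5KO and 5 in DKO, with 0 higher, among them Col1a1 in each and Acta2 in DKO (−3.67 ± 0.27, adjusted p = 0.000563). Of 13 primitive endoderm markers tested, 4, 4 and 3 were lower and 0 higher, and the list of 17 summed to 1680 CPM in WT and 1230 to 1400 in the knockouts. Of 9 trophectoderm markers tested, 3, 4 and 4 were lower and 0 higher, and the list of 10 summed to 804 CPM in WT, 357 and 376 in the Pcgf3KO pair, 305 and 311 in the Pcgf5KO pair, and 178 and 298 in the DKO pair, with Tpbpa at 0 in all 7 libraries. Of 7 markers of 2-cell-like cells, Zscan4c, Zscan4d, Zscan4f, Tcstv3 and Zfp352 were at 0 in all 7 libraries. WT had the highest trophectoderm and primitive endoderm sums. Of the factors, Klf4, Klf5, Nr5a2 and Nr0b1 were lowest in WT and Esrrb was highest there. In WT most of the trophectoderm sum was Krt8 (418 CPM) and Krt18 (278), and Sparc (807) was the largest part of the primitive endoderm sum. Single markers did not all follow the sums. Ascl2 was at 13.8 CPM in WT and 13.2 to 24.2 in the knockouts, and Cubn at 0.626 in WT and 0.907 to 3.06 in the knockouts. In bulk RNA, fewer cells of a type and less RNA per cell cannot be told apart, and the part of these cell types in the levels of the 10 factors was not tested.

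Without 1 DKO library the lists had more calls, in the single knockouts too. Calls over all genes rose to many times those with every full library, as given under the dependence on processing. The counts below thus do not stand against the shares given earlier and are no result about the lists. For the other naive-associated genes the higher calls then numbered 12, 15 and 11 (Pcgf3KO, Pcgf5KO and DKO against WT, in this order below too) and the lower calls 2, 2 and 4 or 5, depending on the library left out. The core and shared factors had 9, 9 and 3 or 5 higher, and 0, 1 and 0 or 4 lower. The LIF list had 3, 4 and 4 or 5 higher and 4, 7 and 5 or 6 lower, and the FGF list 3, 3 and 2 or 3 higher and 7, 10 and 6 or 8 lower. Of the repressors of the naive network, 3, 2 and 3 or 5 were then higher and 3, 4 and 2 or 5 lower, of the formative and primed genes 4, 5 and 2 or 3 higher and 5, 3 and 2 or 5 lower, and of the beta-catenin genes 1, 3 and 1 or 2 higher and 1, 1 and 1 or 2 lower. Fibroblast markers had 15, 10 and 8 lower and 0, 0 and 0 or 2 higher, primitive endoderm markers 7, 7 and 6 or 8 lower and 0, 1 and 0 or 1 higher, and trophectoderm markers 4, 7 and 5 or 7 lower and 1, 1 and 0 higher.

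The genes most alike in pattern over the 7 libraries, by Pearson correlation of log2 CPM among 10567 genes, give each factor's company. The libraries share groups of 2, so the values describe these libraries and carry no test. Klf4 went most with the phosphatase gene Ptprj (0.991), Tfcp2l1 with Nexmif (0.983), Tbx3 with the calcium channel subunit gene Cacna2d2 (0.985), Nr5a2 with the mitochondrial ribosome gene Mrps31 (0.994) and Nr0b1 with the autophagy gene Atg13 (0.995). Esrrb went most with Bmp6 (0.989), Klf2 with Shisa8 (0.989), Zfp42 with Tmco3 (0.986), Prdm14 with Inip (0.962) and Klf5 with Tomm70a (0.953). In none of the 10 cases was the closest gene another of the factors. Tbx3 and Prdm14 lay below the level needed and could not be chosen. With so many genes compared, this is no result about the factors. Among the factors, Klf4 and Tfcp2l1 ran together (0.78), and Klf4 and Esrrb (−0.81) and Tfcp2l1 and Nr5a2 (−0.72) ran in opposite directions.

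By the coordinates of the deposited tables (mm10), the called factors lie at chr4:55527143-55532466 (Klf4, minus strand), chr5:119670669-119684724 (Tbx3, plus), chr1:118627945-118685168 (Tfcp2l1, plus), chr1:136842571-136960448 (Nr5a2, minus) and chrX:86191764-86195947 (Nr0b1, plus). The others lie at chr8:72319033-72321656 (Klf2, plus), chr14:99298691-99313405 (Klf5, plus), chr12:86361117-86521628 (Esrrb, plus), chr8:43295068-43307009 (Zfp42, minus) and chr1:13113457-13127163 (Prdm14, minus). Tfcp2l1 and Nr5a2, on the same chromosome, took opposite sides of WT in Pcgf5KO.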

How the data were processed

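The authors deposited raw read counts for each Ensembl gene as whole numbers, in 1 table per library (per the file headers). The submitters' processing notes name TopHat2 2.0.12, Cufflinks 2.2.1, HTSeq 0.6.0 and mm10 without a role or order; annotation release and strand setting: not given in the sources used here. Symbols and exon lengths came from GENCODE release M21 (46488 identifiers matched). 0 entries named no gene.

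The 7 full libraries entered 1 fit of edgeR 4.0.16 in R 4.3.3 (TMM, filterByExpr, glmQLFit and glmQLFTest, group as the only term, 3 residual degrees of freedom), first tested on simulated data. It covered 15669 genes with 99.93% of the counts. Calls were made at an adjusted p of 0.05 or less (Benjamini-Hochberg, all tested genes together), and each adjusted p is edgeR's unless DESeq2 is named. Log2 fold changes are given ± SE and CPM means ± SD. DESeq2 1.42.0, other scalings, no filter, a replicate block, only the groups compared and leaving out each library were tried as alternatives. All 10 factors were tested in each comparison, and those not named there were not called with all 7 libraries. The rule for other lists allowed the called genes, at most 4 per list and comparison by smallest p, and Pou5f1, Sox2, Nanog, Pcgf3 and Pcgf5; not every gene it allowed is named, and those that are were picked from it with their values known. The factors and lists were chosen with earlier results of these data known. Counting intervals cover counting error only.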

Additional observations from a re-analysis of the deposited data

Results flagged for a closer look

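For 4 of the 10 factors the DKO change differed from both single changes added, by the interaction term of the edgeR fit over 15669 genes. Tbx3 had an interaction of 2.84 on the log2 scale (adjusted p = 0.0176), Nr0b1 −0.76 (adjusted p = 0.0264), Nr5a2 −0.68 (adjusted p = 0.0287) and Tfcp2l1 0.59 (adjusted p = 0.0298). For Tbx3, Pcgf5KO differed from WT by −0.51, while DKO differed from Pcgf3KO by 2.33. All 4 rest on the 1 WT library as well as the knockouts. All 4 calls were lost without either Pcgf3KO replicate or either Pcgf5KO replicate. Differences between clones cannot be told apart from the loss of a gene with these labels.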

How the results depend on the processing

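Members called ran with each library left out in turn from 0 to 4 in Pcgf3KO and in Pcgf5KO against WT, 2 to 7 in DKO against WT, 0 to 7 for the mean of the knockouts, 0 to 8 and 0 to 7 for DKO against Pcgf3KO and Pcgf5KO, 0 to 3 between the singles, 0 to 6 for the interaction and 1 to 9 for any difference. Counts over all genes ran from 46 to 3167, 37 to 4119, 165 to 5379, 187 to 3860, 7 to 5571, 3 to 6583, 3 to 1909, 35 to 5712 and 11 to 7043 in that order, against 370, 468, 505, 554, 272, 357, 22, 594 and 312 with all 7, highest without DKO replicate 1 or 2. Without a filter on low counts, 4 factors were called in Pcgf3KO, 3 between the singles and 5 for any difference. With only the groups compared it was 4 in Pcgf3KO, 6 in Pcgf5KO, 1 in DKO against Pcgf5KO and 3 between the singles. At an adjusted p of at most 0.01 it was 0 in Pcgf3KO, Pcgf5KO, the mean and the interaction, and 1 in DKO against WT and against Pcgf5KO (edgeR). DESeq2 called 2 between the singles. Over all genes, no filter gave 1105, 1222, 1474, 1339, 1355, 2312, 224, 1904 and 2400 calls in the order above. A fit of only the groups compared gave 3030, 4882 and 329 against WT and 35, 7 and 1874 between knockouts. The genes listed in all 8 libraries, which hold 0 of the factors, gave 149, 233, 219, 289, 14, 64, 5, 187 and 16. DESeq2 gave 794 for DKO against Pcgf5KO and 75 between the singles. At 0.01 they were 98, 104, 131, 156, 54, 7, 11, 131 and 42. The cause was not tested.

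The main fit did not pair libraries by replicate number. Deviations from the group means of same-numbered libraries correlated at −0.014 for Pcgf3KO and Pcgf5KO over 15669 genes. For Pcgf3KO and DKO the value was 0.135, and for Pcgf5KO and DKO 0.010. These values do not settle whether same-numbered libraries shared a batch. With the number as a block, 2 factors were called between the singles, and calls over all genes were 499 and 1532 for DKO against Pcgf3KO and Pcgf5KO, 62 between the singles, 1305 for the interaction and 946 for any difference.

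Of 969 checks of single factors, 806 gave the same call, 65 lost it, 58 gained it and 40 changed sign, in each case from a value that was not called. For these, the log2 fold changes with each library left out in turn ran as follows. Klf2 ran from −0.052 to 0.28 in Pcgf3KO, −0.046 to 0.05 in Pcgf5KO, −0.211 to 0.148 in DKO and −0.028 to 0.091 for the mean of the knockouts. Between groups it ran from −0.335 to 0.031 for DKO against Pcgf3KO, −0.212 to 0.146 for DKO against Pcgf5KO, −0.277 to 0.054 between the singles and −0.337 to 0.029 for the interaction. Esrrb ran from −0.248 to 0.045, −0.252 to 0.041, −0.02 to 0.035 and −0.114 to 0.179 in those last 4 comparisons. Prdm14 ran from −0.017 to 0.954 in DKO against WT, and from −0.652 to 0.319, −0.738 to 0.233 and −0.143 to 0.354 between knockout groups. Zfp42 ran from −0.02 to 0.011 for the mean and −0.068 to 0.027 for DKO against Pcgf5KO. In DKO against Pcgf3KO, Klf5 ran from −0.503 to 0.021 and Nr5a2 from −0.03 to 0.013. Nr0b1 ran from −0.188 to 0.009 for DKO against Pcgf5KO, Tbx3 from −0.34 to 0.136 between the singles and Klf4 from −0.353 to 0.091 for the interaction. Under other settings, Klf2 in Pcgf5KO was −0.003 with DESeq2's size factors and with DESeq2, −0.002 without a filter and −0.001 with only the groups compared. With upper-quartile factors Zfp42 was 0.007 for the mean and Nr5a2 0.008 for DKO against Pcgf3KO, and with the replicate block the Esrrb interaction was −0.028.

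Leaving out the WT library was run for comparisons between knockouts only, since no other full WT table was used. The interaction and the mean had no run on fewer groups, as all groups enter them, and DESeq2 none for any difference. Of the factors, Tbx3 (25 to 43 counts outside DKO) and Prdm14 rest on the fewest counts, which limits what can be seen for them.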

Other observations

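The surrounding pluripotency genes had interactions of their own. Of 13 core and shared factors, 6 lay below additivity and 0 above, where 2.02% of all genes lay below and 1.77% above, with a median of −0.543 against 0.008 over all genes. Pou5f1 had −0.58 ± 0.11 (adjusted p = 0.0245), Sall1 −0.71 ± 0.14 (adjusted p = 0.0288) and Foxd3 −0.90 ± 0.19 (adjusted p = 0.0319). Of 21 other naive-associated genes, 7 lay below and 0 above, with a median of −0.632. The 10 factors had 2 above and 2 below and a median of −0.137. Lif lay above additivity (1.58 ± 0.23, adjusted p = 0.00851), with a CPM of 14.1 in WT, 6.65 and 7.05 in the Pcgf3KO pair, 6.33 and 6.31 in the Pcgf5KO pair, and 9.33 and 9.09 in the DKO pair. Every interaction uses the 1 WT library, so these genes share its deviation.

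Otx2 was higher in DKO than in Pcgf3KO (1.51 ± 0.20, adjusted p = 0.00978) and than in Pcgf5KO (1.36 ± 0.21, adjusted p = 0.0211). Zic2 was higher in DKO than in Pcgf3KO (0.86 ± 0.11, adjusted p = 0.00897), and Cldn6 was lower than in both (−0.79 and −0.72, adjusted p = 0.0346 and 0.0453). Without DKO replicate 1 or 2 these were 1.24 or 1.74 and 1.09 or 1.59 for Otx2, 0.70 or 1.0 for Zic2, and −0.54 or −1.09 and −0.47 or −1.02 for Cldn6, all in the same direction.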
